A study of Mus musculus with 6 samples.

Results

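The interstitial matrix genes described here are 42 genes of the mouse for fibre-forming and other collagens, elastic fibres and microfibrils, proteoglycans and hyaluronan, and matricellular proteins. They were chosen by name, and their probes were found through the gene name that the array files give. Of the 42 genes, 41 had a probe (78 of the 41174 gene probes), 36 could be tested among 19297 tested genes, and 35 had a value in every pair of pools. The classes are 8 fibrillar collagens (all 8 tested), 12 other collagens (8 tested), 10 elastic fibre and microfibril genes (8 tested), 7 proteoglycan and hyaluronan genes (all 7 tested) and 5 matricellular genes (all 5 tested).

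The tissue was the anterior presomitic mesoderm with the 4 newest somites, dissected from mouse embryos at embryonic day 9.5. The 2 groups were embryos lacking Paraxis (Paraxis-/-), the basic helix-loop-helix factor encoded by Tcf15, and wild-type (WT) embryos, with C57BL/6J given as the strain of both, and no label describes the mutant allele further. Tissue of 5 embryos was combined into a pool, with 3 pools for each genotype, and each Paraxis-/- pool shared 2 two-colour arrays with 1 WT pool, the dyes being exchanged on the second array. This gave 3 pairs of pools, named after the WT pool: pair A (Paraxis-/- pool A with WT pool A), pair B (Paraxis-/- pool C with WT pool B) and pair C (Paraxis-/- pool B with WT pool C). Pair A was alone on slide 1, and pairs B and C shared slide 2, so slide and pools cannot be told apart for pair A. All ratios are log2 of Paraxis-/- over WT, averaged over both arrays of a pair, and a ratio below 0 means a lower signal in Paraxis-/- tissue.

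The targeted gene followed the labels, with Tcf15 ratios of -5.23, -5.48 and -5.52 in pairs A, B and C. Of the 43379 gene spots of an array, 28683 to 31795 were well above background in the Paraxis-/- channel and 27080 to 30982 in the WT channel. Of 10 markers of presomitic mesoderm and somite, 9 were tested, and all 9 had a signal well above background in every measurement. Pair A stood apart from the other pairs in several markers of neighbouring tissues, which are given with the collagens below, and means of pairs B and C alone are therefore given as well.

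Interstitial matrix fills the space between cells. Fibrillar collagens are secreted as procollagens whose 3 chains wind into a triple helix in which glycine recurs regularly, and after removal of the end pieces the molecules line up in fibrils. Fibrillins build microfibrils, which carry elastin and hold latent TGF-beta through binding proteins, while versican, hyaluronan and link proteins make a hydrated gel through which mesenchymal cells move. In the early embryo the somite is an epithelial ball that later gives rise to the sclerotome, whose cells lay down cartilage collagens and proteoglycans of the vertebrae, and to dermal and tendon cells, which are rich in type I and type III collagen.

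The array reads each gene through 60-base probes, and 8 of those behind the collagen and link protein values below are printed here, to show what a ratio was measured on and how far the probes of a gene are separate. They are written 5′ to 3′ in the sense of the transcript, with positions in build mm9 from the file of slide 1. In the pair of Col2a1 probes the capitals mark the 40 bases that both share, so these probes are not independent. In the probes of Col5a1 and Col11a2 the capitals mark the glycine codons (GGN) that recur every 9 bases in the triple helix, 6 in each probe. The other probes carry no capitals.
Col2a1, chr15:97806505-97806564, minus strand: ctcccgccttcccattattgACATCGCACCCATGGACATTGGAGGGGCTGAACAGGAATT
Col2a1, second probe, chr15:97806485-97806544, minus strand: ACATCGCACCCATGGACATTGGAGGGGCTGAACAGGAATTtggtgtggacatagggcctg
Col1a1, second probe, chr11:94812052-94812111, plus strand: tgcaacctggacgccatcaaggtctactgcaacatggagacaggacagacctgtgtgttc
Col3a1, second probe, chr1:45378397-45378456, plus strand: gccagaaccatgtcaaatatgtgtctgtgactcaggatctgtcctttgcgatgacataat
Col5a1, second probe, chr2:27842243-27844666 across an intron, plus strand: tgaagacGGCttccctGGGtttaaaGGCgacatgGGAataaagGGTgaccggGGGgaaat
Col11a2, second probe, chr17:34189287-34189453 across an intron, plus strand: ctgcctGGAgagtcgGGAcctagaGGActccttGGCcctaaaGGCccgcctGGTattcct
Hapln1, chr13:89747664-89747723, plus strand: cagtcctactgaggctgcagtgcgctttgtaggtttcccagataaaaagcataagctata
Col8a1, chr16:57627033-57627092, minus strand: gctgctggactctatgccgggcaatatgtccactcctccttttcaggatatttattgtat

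Over the 3 pairs, no interstitial matrix gene differed between the genotypes beyond the threshold. None of the 36 passed an adjusted p of 0.05 in limma's test over all genes, where 4 of 19297 genes passed (0.0207%), 2 in each direction (0.0104% each). At an unadjusted p under 0.05 there were 5 of 36 (5.07% of all genes), namely 3 with ratios below 0 (2.73%), Fbn2, Col11a2 and Fbln1, and 2 with ratios above 0 (2.34%), Hapln1 and Vcan. The ratios of 8 of the 35 genes with a value in every pair had the same sign in all 3 pairs (25.8% of all genes), 5 of them below 0 (12.2%) and 3 above (13.5%). With 3 pairs the exact two-sided sign-flip permutation test cannot give a p below 0.25, the value it gave for each of these 8 genes. The ratios of many matrix genes differed between the pairs. The median SD over the pairs was 0.27 for the matrix genes and 0.64 for the fibrillar collagens, beside 0.14 for all tested genes, and the ratios of 10 of 35 spanned at least 2-fold over the pairs (3.11% of all genes).

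**Figure D1:**
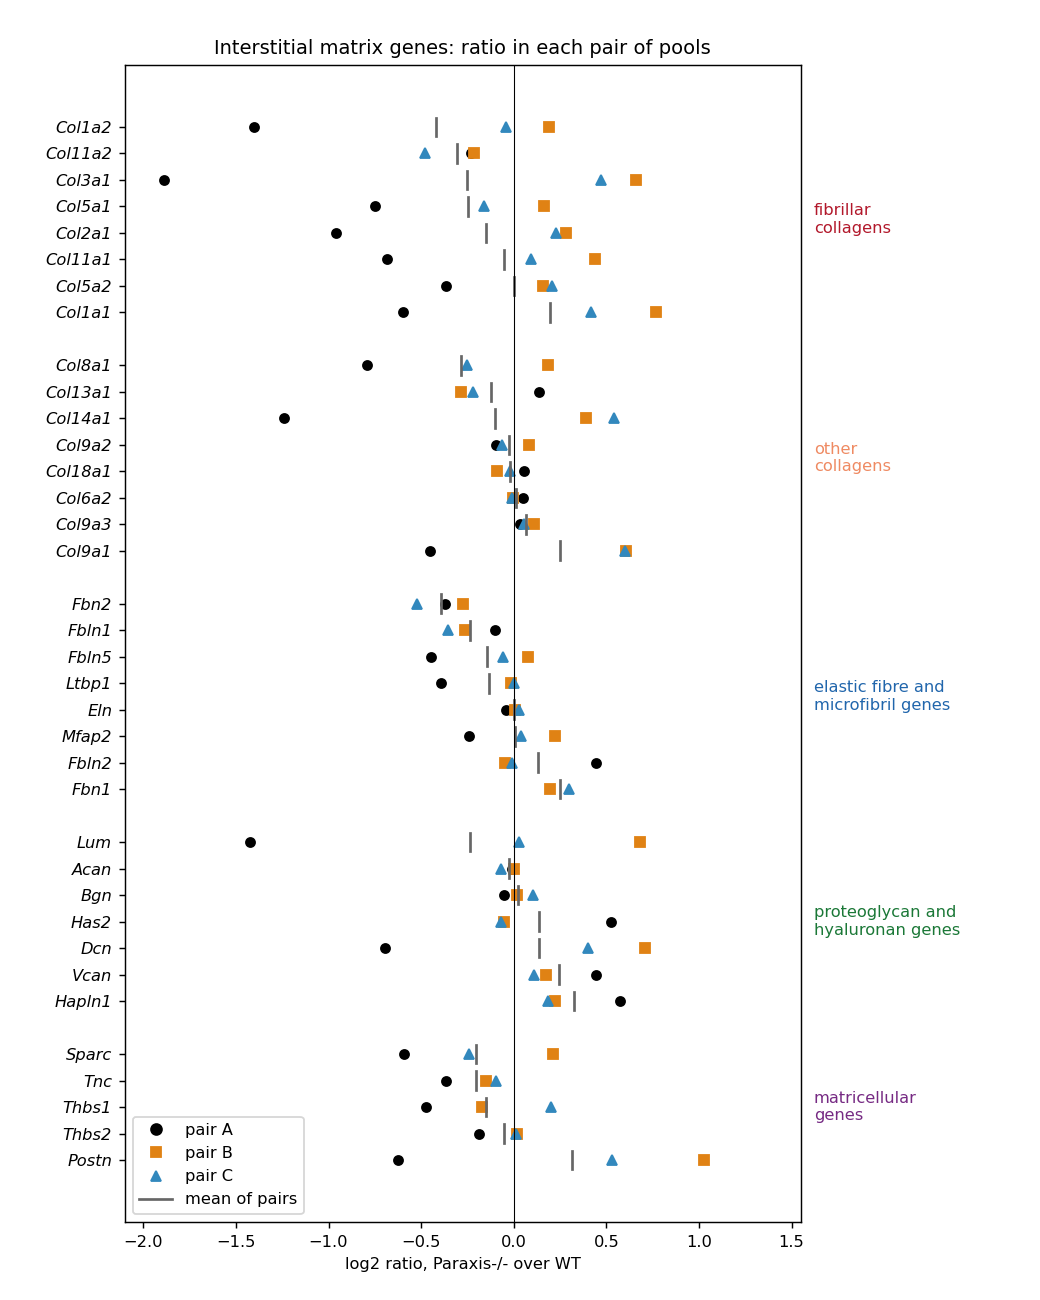
Log2 ratio of Paraxis-/- over WT (horizontal axis) of the 36 tested interstitial matrix genes, grouped by class; circles, squares and triangles are pairs A, B and C, and the bar is their mean. The circles of most fibrillar collagens, Lum, Dcn, Col14a1 and Postn lie left of 0 while their squares lie right of 0, and the 3 symbols of Fbn2 lie together at -0.37, -0.28 and -0.52.

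The fibrillar collagens were lower in Paraxis-/- tissue in pair A and mostly higher in pairs B and C. In pair A all 8 ratios were below 0 and 6 of 8 were lower by at least 1.5-fold (2.10% of all genes), with a class median of -0.72. In pair B the median was 0.24 with 1 of 8 ratios below 0, and in pair C it was 0.15 with 3 of 8 below 0. The mean ratio had a class median of -0.20 over the 3 pairs and of 0.22 without pair A, so its direction rests on that pair. Medians of all tested genes were -0.00, 0.01 and -0.00 in the 3 pairs.

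Col3a1, the chain of type III collagen, showed the widest span. Its ratios were -1.89, 0.66 and 0.47 in pairs A, B and C, a mean of -0.25 (SE 0.53, n = 3 pairs, limma adjusted p = 0.986) and a mean of 0.56 in pairs B and C. The log2 levels were 12.01, 13.18 and 12.92 in the Paraxis-/- pools of pairs A, B and C, against 13.90, 12.52 and 12.45 in the WT pools. The Paraxis-/- pool of pair A was thus the lowest of the 6 and its WT partner the highest, and the groups overlapped. Levels of pair A come from slide 1 alone. For this and every gene below, comparing them with levels of pairs B and C cannot separate slide from pool. The second Col3a1 probe, printed above, was dim (well above background in 4 of 6 Paraxis-/- and 3 of 6 WT measurements), and its ratios were -0.42, 0.08 and 0.06. Col3a1, Col1a1, Col2a1, Col11a1, Col14a1, Lum and Dcn are described gene by gene because their values stood out, not because the rule for named genes took them.

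The chains of type I collagen, the main fibre of dermis, tendon and bone, shared the order of the pairs but not the pattern of pool levels. Col1a2 had ratios of -1.40, 0.19 and -0.04 in pairs A, B and C (mean -0.42, SE 0.32, limma adjusted p = 0.954; mean of pairs B and C 0.07). Its log2 levels were 12.61, 12.76 and 12.50 in Paraxis-/- pools, against 14.01, 12.57 and 12.54 in WT pools. Here the WT pool of pair A was the high one and the other 5 pools lay between 12.50 and 12.76. Col1a1 had ratios of -0.60, 0.77 and 0.42 (mean 0.19, SE 0.27, limma adjusted p = 0.975; mean of pairs B and C 0.59). The pools had log2 levels of 10.31, 11.53 and 11.32 in Paraxis-/- pools, against 10.91, 10.77 and 10.91 in WT pools. For Col1a1 the 3 WT pools were alike and the Paraxis-/- pools differed. The second Col1a1 probe had ratios of -0.68, 0.20 and 0.19 with a mean of -0.10, so the 2 probes share the sign in each pair but not that of the mean.

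Col2a1, the collagen of cartilage and of the notochord sheath, had ratios of -0.96, 0.28 and 0.23 (mean -0.15, SE 0.27, limma adjusted p = 0.981; mean of pairs B and C 0.25). The log2 levels were 11.60, 11.55 and 11.68 in Paraxis-/- pools, against 12.56, 11.27 and 11.45 in WT pools. The WT pool of pair A was the highest. Its second probe, with 40 shared bases, had -0.93, 0.34 and 0.24. Col11a1, a chain of type XI collagen that forms mixed fibrils with type II, had -0.68, 0.44 and 0.10. Its second probe kept the sign in pairs A and B, at -0.51 and 0.09, and had -0.12 in pair C. Col5a1 and Col5a2 encode chains of type V collagen, which nucleates type I fibrils. Col5a1 had -0.75, 0.16 and -0.16 (triple-helix probe -0.41, 0.16 and -0.07), and Col5a2 had -0.37, 0.16 and 0.21.

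Col11a2 was the one fibrillar collagen whose ratios lay below 0 in every pair. They were -0.23, -0.21 and -0.48 (mean -0.31, SE 0.08, mean of pairs B and C -0.35, unadjusted p = 0.0154, limma adjusted p = 0.893). The log2 levels were 7.73, 8.001 and 7.88 in Paraxis-/- pools, against 7.96, 8.22 and 8.35 in WT pools, and the groups overlapped. The triple-helix probe of the gene, printed above, did not repeat this, with -0.22, 0.06 and 0.11 and a mean of -0.02. For the brightest Col11a2 probe the arrays of pair B had opposite signs (-0.46 with Paraxis-/- in Cy3 and 0.03 in Cy5).

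**Figure D2:**
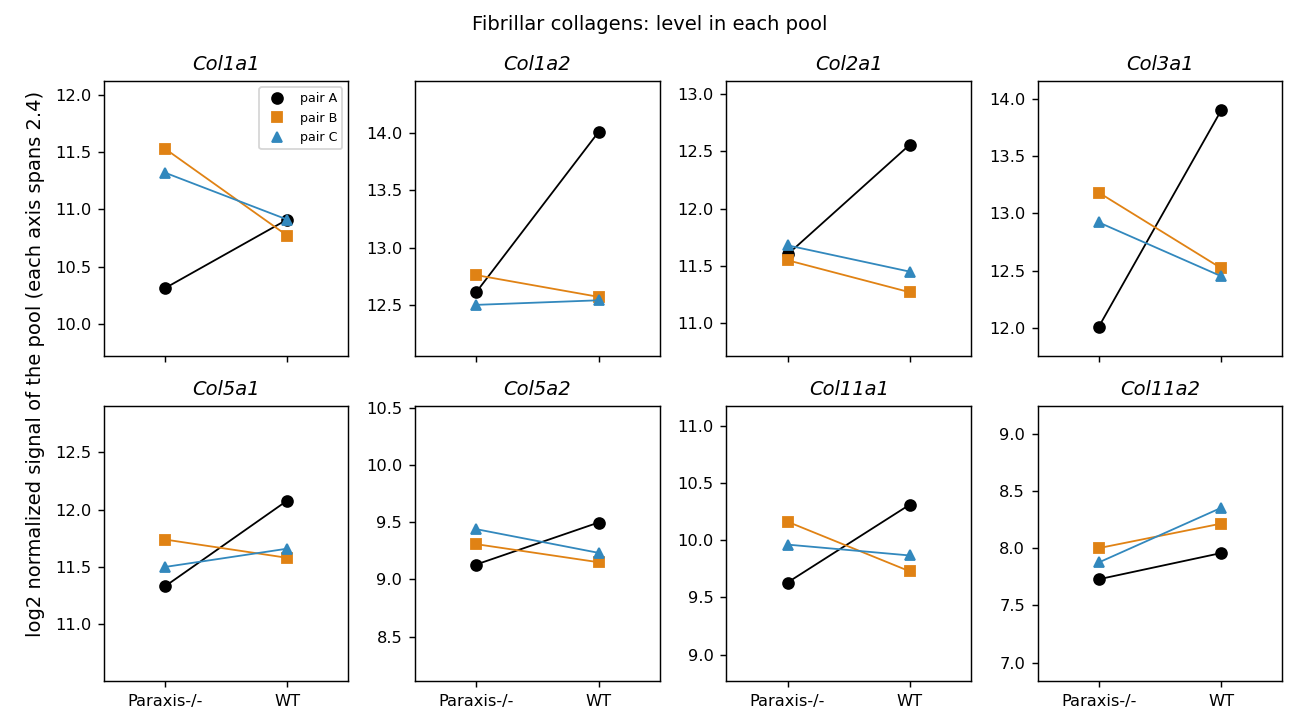
Log2 normalized signal of the 8 fibrillar collagens in the Paraxis-/- pools (left) and WT pools (right) of pairs A, B and C; a line joins the pools that shared arrays, and each vertical axis spans 2.4. The black lines of pair A go up to the right in all 8 panels, most in Col3a1 (12.01 in the Paraxis-/- pool, 13.90 in the WT pool), whereas in Col11a2 all 3 lines do.

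The other collagens divided. Of 8 tested, 2 were lower by at least 1.5-fold in pair A, and the class medians were -0.03, 0.10 and -0.01 in the 3 pairs, with -0.02 for the mean ratio and 0.00 without pair A. Col14a1, a collagen with an interrupted helix that sits on fibril surfaces, had ratios of -1.24, 0.39 and 0.54 (mean -0.10, mean of pairs B and C 0.47). Log2 levels were 7.24, 8.16 and 8.15 in Paraxis-/- pools, against 8.48, 7.77 and 7.61 in WT pools, the arrangement seen for Col3a1. Col9a1, a chain of the type IX collagen that decorates type II fibrils, had -0.45, 0.60 and 0.60 (mean of pairs B and C 0.60). The other type IX chains did not show this, with -0.10, 0.08 and -0.06 for Col9a2 and 0.03, 0.11 and 0.06 for Col9a3. Their signals were weaker, with mean log2 levels of 7.5 and 6.9 in Paraxis-/- pools against 9.5 for Col9a1. The arrays of Col9a2 had opposite signs in every pair, so the comparison of these chains is limited. Col8a1, a short network-forming collagen, had -0.79, 0.19 and -0.25.

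Col13a1, a transmembrane collagen of cell contacts, ran the other way. Its ratios were 0.14, -0.29 and -0.22 in pairs A, B and C, and its second probe had 0.05, -0.27 and -0.07. Col18a1, a heparan sulfate collagen of basement membranes, had 0.05, -0.09 and -0.02, and its second probe had -0.115, -0.116 and -0.091. Col6a2, a chain of the beaded filaments of type VI collagen, had 0.05, -0.01 and -0.01. The Col6a2 signal was low, with a mean log2 level of 6.9 in Paraxis-/- pools. The untested collagens were Col6a1 and Col12a1, whose probes did not pass the filter on signal, Col6a3, for which no probe carried the name, and Col15a1, which had a value in pair A alone, where the arrays opposed each other (1.45 with Paraxis-/- in Cy5 and -2.31 with Paraxis-/- in Cy3).

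The elastic fibre and microfibril genes kept closer to 0, and no measured ratio reached 1.5-fold in either direction in any pair. The class medians were -0.24, -0.00 and -0.01 in pairs A, B and C, with -0.07 for the mean ratio and 0.00 without pair A. Fbn2, the fibrillin of embryonic microfibrils, had the smallest unadjusted p of all 36 matrix genes. Levels on the log2 scale were 12.88, 12.84 and 12.59 in Paraxis-/- pools, against 13.25, 13.12 and 13.11 in WT pools, so that every Paraxis-/- pool lay below every WT pool. Such a separation downward held for 2 of 35 matrix genes (2.88% of all genes), Fbn2 and Tnc. The Fbn2 ratios were -0.37, -0.28 and -0.52, a mean of -0.39 (SE 0.08, mean of pairs B and C -0.40, 95% confidence interval -0.60 to -0.19, unadjusted p = 0.00463, limma adjusted p = 0.638), or 1.31-fold lower in Paraxis-/- tissue. Over the 16 alternative settings the Fbn2 ratio lay between -0.45 and -0.29, with limma adjusted p between 0.0655 and 0.992. The 0.0655 came from taking the 6 arrays as 6 samples, which counts both arrays of a pair as replicates. With the pair as a random block the limma adjusted p was 0.188.

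Fbn1 encodes a fibrillin that is also found in microfibrils of the adult. Its brightest probe had no value in pair A, and its 0.20 and 0.30 in pairs B and C are means of arrays of opposite sign (0.99 with Paraxis-/- in Cy5 and -0.59 with Paraxis-/- in Cy3 in pair B, 0.97 and -0.37 in pair C). A second Fbn1 probe had -0.16, 0.04 and 0.40. Fbln1, a fibulin of matrix and basement membrane edges, had -0.10, -0.26 and -0.36 (mean -0.24, SE 0.08, mean of pairs B and C -0.31, unadjusted p = 0.0317, limma adjusted p = 0.934), and its second probe agreed in each pair, at -0.08, -0.31 and -0.39. On the log2 scale its levels were 12.26, 12.55 and 12.42 in Paraxis-/- pools, against 12.36, 12.81 and 12.78 in WT pools, and the groups overlapped. Fbln2, a fibulin that binds fibrillin and versican, had 0.44, -0.05 and -0.01, above 0 in pair A alone.

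Ltbp1, which tethers latent TGF-beta to microfibrils, had -0.39, -0.01 and -0.00, and its second probe had -0.03, -0.04 and -0.10. Mfap2, a microfibril-associated glycoprotein, had -0.24, 0.22 and 0.04, and its second probe had -0.09, 0.07 and -0.03. Fbln5, which guides elastin onto microfibrils, had -0.45, 0.08 and -0.06, from a dim probe that stood well above background in 3 of 6 Paraxis-/- and 4 of 6 WT measurements. Eln, elastin itself, had -0.04, 0.01 and 0.03 at a low signal (mean log2 level 6.9 in Paraxis-/- pools). Mfap5 and the cross-linking enzyme gene Lox did not pass the filter on signal.

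The proteoglycan and hyaluronan genes did not share a direction. The class medians were -0.01, 0.17 and 0.10 in pairs A, B and C, with 0.14 for the mean ratio, 0.14 without pair A, 0.03 without pair B and 0.01 without pair C. Hapln1, the link protein that fixes proteoglycans on hyaluronan, had ratios of 0.57, 0.22 and 0.18 (mean 0.33, SE 0.10, mean of pairs B and C 0.20, unadjusted p = 0.025, limma adjusted p = 0.934). Its log2 levels were 11.05, 10.54 and 10.47 in Paraxis-/- pools, against 10.47, 10.32 and 10.29 in WT pools, so the groups met at 10.47. The second Hapln1 probe had 0.36, 0.02 and 0.03.

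Vcan, the large hyaluronan-binding proteoglycan versican, had ratios of 0.45, 0.17 and 0.11 (mean 0.24, SE 0.09, mean of pairs B and C 0.14, unadjusted p = 0.0477, limma adjusted p = 0.951). The pools had log2 levels of 10.40, 10.25 and 10.20 in Paraxis-/- pools, against 9.95, 10.08 and 10.10 in WT pools, with every Paraxis-/- pool above every WT pool, the only such gene among 35 (3.10% of all genes). The other Vcan probes that passed the filter had means of 0.24, 0.01 and -0.03, so the ratio depends on the probe. Has2, the hyaluronan synthase of early embryos, had 0.52, -0.05 and -0.07 in pairs A, B and C, and its second probe had 0.39, 0.05 and -0.23. The log2 levels of Has2 were 11.77, 12.06 and 12.09 in Paraxis-/- pools, against 11.24, 12.11 and 12.16 in WT pools, with the WT pool of pair A the lowest of the 6.

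Of the 3 small leucine-rich proteoglycans that bind collagen fibrils, Lum and Dcn had the pair order of the fibrillar collagens and Bgn was close to 0 in each pair. Lum, lumican, had ratios of -1.43, 0.68 and 0.03 (mean -0.24, SE 0.40, limma adjusted p = 0.980; mean of pairs B and C 0.36). Log2 levels were 8.002, 9.63 and 8.81 in Paraxis-/- pools, against 9.43, 8.95 and 8.78 in WT pools. Dcn, decorin, had ratios of -0.69, 0.71 and 0.40 (mean 0.14, SE 0.28, limma adjusted p = 0.986; mean of pairs B and C 0.56). The log2 levels of Dcn were 7.61, 8.35 and 7.95 in Paraxis-/- pools, against 8.30, 7.64 and 7.55 in WT pools. In both genes the Paraxis-/- pool of pair B was the highest of the 6 pools. Bgn, biglycan, had -0.05, 0.02 and 0.10, and Acan, the cartilage proteoglycan aggrecan, had -0.01, 0.00 and -0.07. Both signals were low, with mean log2 levels of 7.1 and 7.2 in Paraxis-/- pools. The Bgn arrays of pair A had opposite signs (0.22 with Paraxis-/- in Cy3 and -0.32 in Cy5).

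All 5 matricellular genes, whose products bind matrix without building it, had ratios below 0 in pair A, with class medians of -0.48, 0.02 and 0.01 in pairs A, B and C. The mean ratio had a median of -0.15, and of 0.01 without pair A. Postn, periostin, which aids collagen cross-linking, had ratios of -0.62, 1.03 and 0.53 (mean 0.31, SE 0.32, limma adjusted p = 0.962; mean of pairs B and C 0.78). Levels on the log2 scale were 8.37, 8.92 and 8.73 in Paraxis-/- pools, against 8.99, 7.89 and 8.20 in WT pools. Without pair B the Postn ratio was -0.05. Tnc, tenascin C, an anti-adhesive glycoprotein, had -0.37, -0.15 and -0.09, with log2 levels of 6.81, 6.96 and 6.88 in Paraxis-/- pools, against 7.17, 7.11 and 6.97 in WT pools.

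Tnc thus lay below every WT pool in each Paraxis-/- pool, by at most 0.37 in a pair (unadjusted p = 0.0595, limma adjusted p = 0.951). The groups were barely apart, with the highest Paraxis-/- pool at 6.959 and the lowest WT pool at 6.974. With Paraxis-/- in Cy3 and in Cy5 the arrays had opposite signs in pair A (0.03 and -0.76) and in pair C (-0.24 and 0.05). Sparc, a collagen-binding glycoprotein also called osteonectin, had -0.59, 0.21 and -0.24 by its brightest probe and -0.13, 0.29 and 0.05 by the other. Thbs1, thrombospondin 1, had -0.48, -0.17 and 0.20. Thbs2 had -0.19, 0.02 and 0.01, from a dim probe that stood well above background in 4 of 6 Paraxis-/- and 2 of 6 WT measurements.

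For part of the set, pair A ran against pairs B and C, although a single pair allows no test. In pair A 12 of 35 matrix genes were lower by at least 1.5-fold, given above beside 2.10% of all genes, and 0 were higher (2.30%). In pair B 6 of 36 were higher by at least 1.5-fold (0.819%) and 0 lower (0.399%), and in pair C 1 was higher (1.07%) and 0 lower (2.05%). A ratio below 0 in pair A with ratios above 0 in pairs B and C was seen for 14 of 35 (13.8% of all genes), of which 5 were fibrillar collagens, 3 proteoglycan genes and 2 each in the other 3 classes. The reverse was seen for 5 of 35 (11.4%), and 8 of 35 had the same sign in all 3 pairs (25.8%). Over the 35 matrix genes Pearson's r was -0.54 between pairs A and B, -0.31 between pairs A and C and 0.76 between pairs B and C, beside 0.11, 0.07 and 0.18 over the 19224 tested genes with 3 pairs. These correlations describe genes that share arrays and slides, and genes are not independent replicates.

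**Figure D3:**
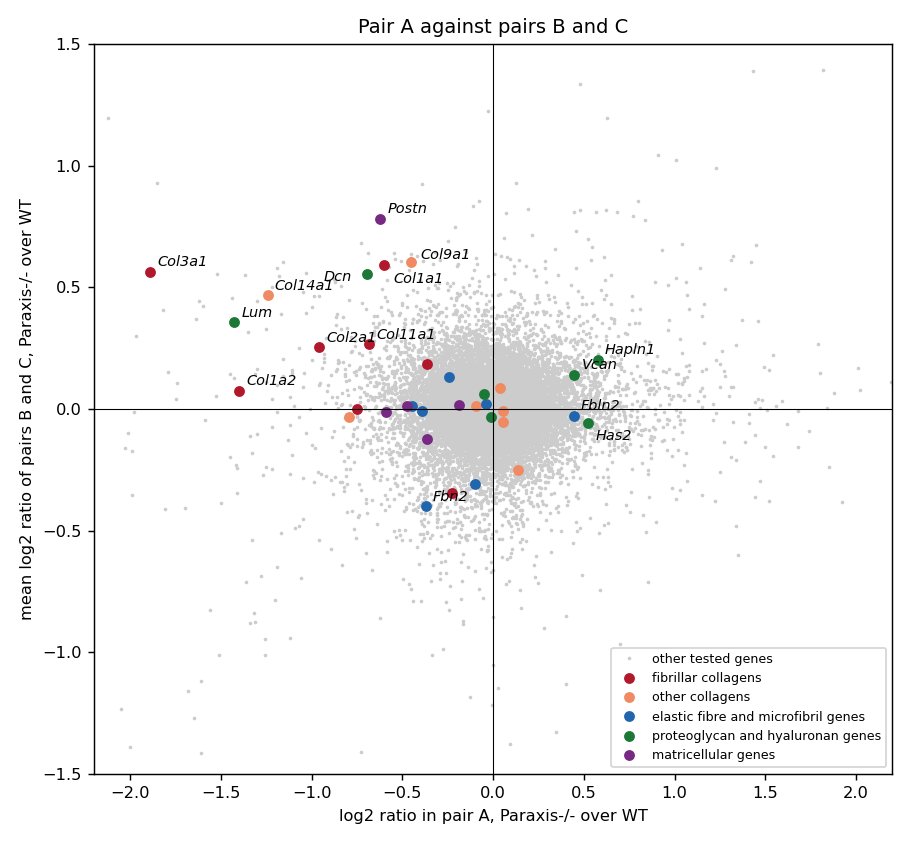
Log2 ratio of Paraxis-/- over WT in pair A (horizontal axis) and its mean in pairs B and C (vertical axis) for 35 interstitial matrix genes, coloured by class, over 19192 tested genes drawn in grey with matrix genes among them (32 genes lie outside the axes). Col3a1, Lum, Col14a1, Postn, Dcn, Col1a1 and Col2a1 lie at the upper left, and Hapln1, Vcan, Has2 and Fbln2 at the right.

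Over the 35 genes the arrays of a pair differed by at most 0.78 on the log2 scale. The 10 genes chosen for a span of at least 2-fold therefore had to exceed their largest array difference, and all 10 did. For the other 25 genes the range over the pairs exceeded the largest array difference in 16. Tnc, for example, had arrays 0.78 apart in pair A beside a range of 0.27 over the pairs. Agreement of arrays bears on technical error only. Over the 35 genes the ratios from both dye orientations differed by medians of 0.20, 0.13 and 0.11 in pairs A, B and C, beside 0.24, 0.15 and 0.15 over all genes. For Col3a1 in pair A they were -2.05 with Paraxis-/- in Cy5 and -1.73 with Paraxis-/- in Cy3. A Col1a1 probe that is spotted 10 times gave -0.56 (SD 0.046 over spots) and -0.64 (SD 0.046) on the arrays of pair A, and 0.71 (SD 0.059) and 0.82 (SD 0.096) on those of pair B. No spot of a matrix gene was saturated.

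**Figure D4:**
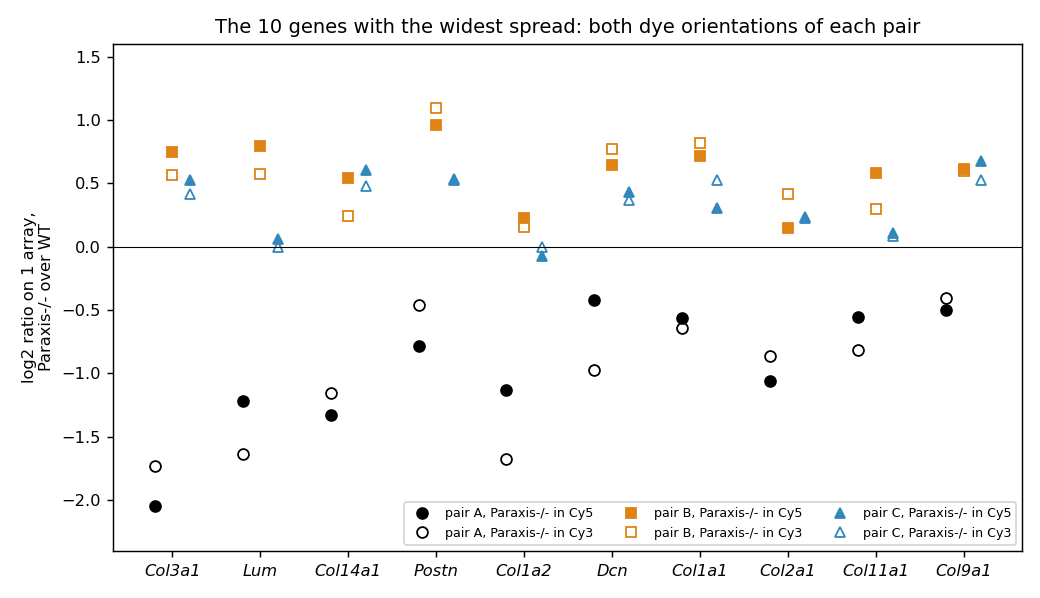
Log2 ratio of Paraxis-/- over WT on each array for the 10 interstitial matrix genes whose pairs span at least 2-fold; filled symbols have Paraxis-/- in Cy5 and open symbols have it in Cy3, with pairs A, B and C side by side. Both arrays of pair A lie below 0 for all 10 genes, and both arrays of pair B lie above 0.

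Markers of neighbouring tissues also differed in pair A. Of 7 neural crest markers, all were tested, all 7 had ratios below 0 in pair A, 0 of 7 in pair B and 1 of 7 in pair C, with list medians of -0.55, 0.15 and 0.10. The mean log2 level of the list ran between 8.92 and 9.31 in Paraxis-/- pools and between 9.09 and 9.54 in WT pools. Sox10, a neural crest factor, had -1.82, 0.37 and 0.45. Neural tube markers had list medians of -0.24, 0.10 and 0.17 (6 of 7 tested), with levels of 10.33 to 10.40 in Paraxis-/- pools and 10.19 to 10.75 in WT pools. Endothelial markers had list medians of -0.23, 0.16 and 0.03 (9 of 9 tested), with levels of 9.71 to 10.14 in Paraxis-/- pools and 9.75 to 9.84 in WT pools. All 3 lists, like the fibrillar collagens, had medians below 0 in pair A and above 0 in pairs B and C. Gene by gene, this pattern held for 6 of 7 neural crest and 4 of 6 neural tube markers and 5 of 8 fibrillar collagens. It held for only 2 of 9 endothelial markers, and Etv2 (1.82, 1.28 and 1.51) and Kdr (0.09, 0.81 and 0.43) were above 0 in every pair.

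Gut and yolk sac markers ran the other way in pair A, with list medians of 0.62, 0.08 and -0.04 (6 of 7 tested, 0 of 6 below 0 in pair A). Their mean log2 level was between 8.74 and 9.11 in Paraxis-/- pools and between 7.61 and 8.86 in WT pools. Within that list Afp, a yolk sac and liver protein, had 4.34, 1.58 and -0.20, and Cdx2, a factor of the tail end and hindgut, had 3.11, -0.51 and -0.82. T (brachyury), a factor of tailbud and notochord from the notochord list, had 1.44, -0.34 and 0.39. Tbx6, a presomitic mesoderm factor, had 2.43, -0.59 and 0.22, against the sign of its own somite list in pair A. Afp, Cdx2, T and Tbx6 were picked from the lists after their values were seen. Surface ectoderm markers had list medians of 0.35, 0.03 and 0.14 (8 of 9 tested), with levels of 10.38 to 10.60 in Paraxis-/- pools and 10.10 to 10.40 in WT pools.

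The somite list had medians below 0 in every pair, -0.63, -0.59 and -0.39. Of its 9 tested genes, 5, 9 and 7 had ratios below 0 in pairs A, B and C. Its mean log2 levels were 11.06 to 11.21 in Paraxis-/- pools and 11.89 to 12.20 in WT pools. Tcf15 itself is 1 of these 9 genes, with ratios of -5.23, -5.48 and -5.52. It lowers the mean level of the Paraxis-/- pools, so the gap in levels does not measure the other somite genes. Blood markers were highest in pair B, with medians of 0.31, 1.01 and -0.09 (8 of 8 tested) and levels of 11.58 to 12.11 in Paraxis-/- pools and 11.09 to 11.63 in WT pools. Notochord markers had medians of 0.19, -0.02 and 0.05 (6 of 7), and lateral plate markers 0.19, 0.08 and 0.03 (8 of 8). Of the untested markers, Ttr had a probe that was never well above background, and no probe carried the names Ripply2, Noto, Sox3 or Grhl3. In such bulk tissue fewer cells of a type and less RNA in each cell cannot be told apart, and the part of other tissues in the collagen ratios was not tested.

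**Figure D5:**
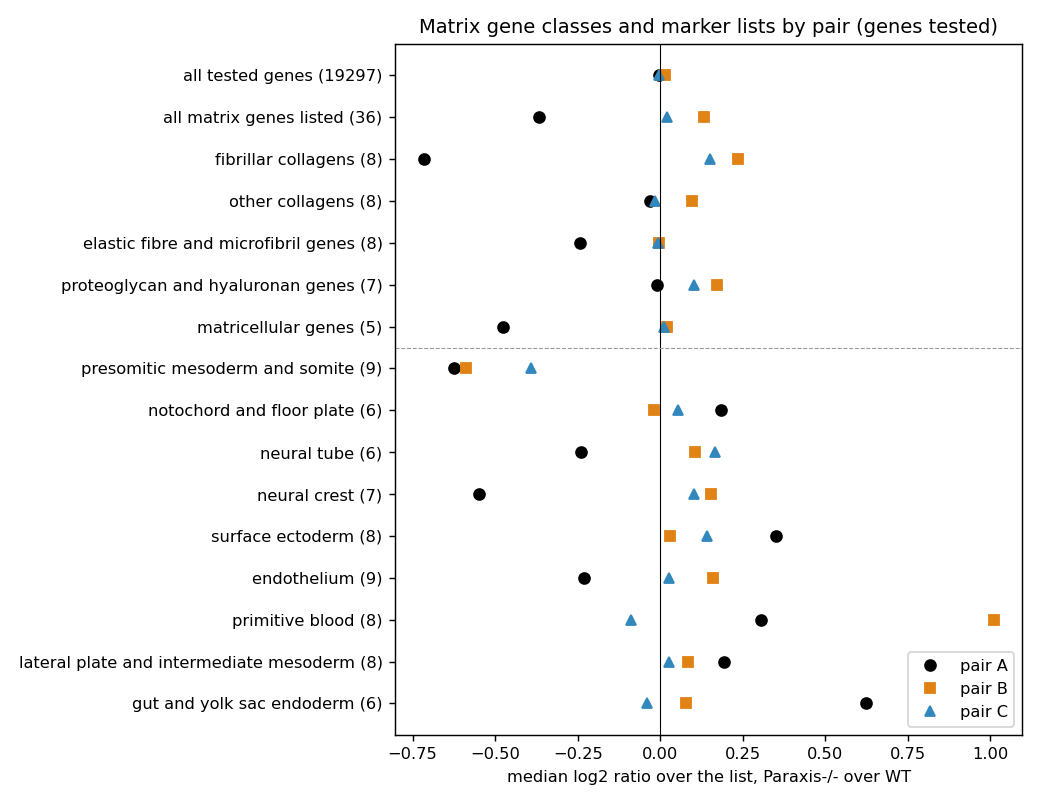
Median log2 ratio of Paraxis-/- over WT in pairs A, B and C for all tested genes, the interstitial matrix genes and their 5 classes (above the dashed line) and for 9 marker lists (below it), with the number of genes tested in brackets. Fibrillar collagens (-0.72 in pair A) and neural crest markers (-0.55) lie left of 0 in pair A and right of 0 in pairs B and C, while gut and yolk sac markers lie at 0.62 in pair A.

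Genes that make or control the matrix, taken as whole lists, gave 1 gene past the threshold. Over all genes 0.0207% passed and 5.07% had an unadjusted p under 0.05. Of 29 tested collagen-modifying and cross-linking genes none passed the adjusted threshold in limma and 2 had an unadjusted p under 0.05 (6.9%), with a list median of 0.02. Plod1, a lysyl hydroxylase of collagen, had ratios of -0.96, -0.66 and -0.42 (mean -0.68, SE 0.12, unadjusted p = 0.00241, limma adjusted p = 0.552), below 0 in each pair. P4ha2, a prolyl hydroxylase subunit, had a mean of 0.23, and Creb3l2, a factor for the secretion of collagen, 0.16. Of 14 other elastic fibre genes none passed and 1 had an unadjusted p under 0.05 (7.14%), with a list median of -0.04. Efemp1, a fibulin-like glycoprotein, had 0.32, 0.25 and 0.53 (mean 0.36, unadjusted p = 0.00786, limma adjusted p = 0.773), Adamts10, a protease that binds fibrillin, had a mean of -0.23, and Emilin1, an elastic fibre glycoprotein, -0.25.

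Of 21 glycosaminoglycan synthesis genes none passed and 0 had an unadjusted p under 0.05 in limma, with a list median of 0.03. Ust, which sulfates chondroitin and dermatan, had a mean of 0.19, Dse, which makes dermatan, -0.16, and Has1, another hyaluronan synthase, 0.11. Of 18 matrix regulators 1 passed and 6 had an unadjusted p under 0.05 (33.3%), 3 in each direction, and the list median was -0.07. That gene was Pax1, a sclerotome factor, which fell in Paraxis-/- tissue, with -4.69, -4.18 and -4.19 (mean -4.35, SE 0.13, limma adjusted p = 0.00463), although with pair B left out 0 of all genes passed. Tgfb3 and Tgfb2 encode TGF-beta ligands that act on matrix genes. Tgfb3 had -0.76, -0.50 and -0.56 (limma adjusted p = 0.358), and Tgfb2 had 0.47, 0.50 and 0.47 (limma adjusted p = 0.361), so these ligands had opposite signs in each of the 3 pairs without passing the threshold.

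Promoter sequences were at hand for some of the genes whose pairs spanned at least 2-fold, and those of Col3a1 and Col1a2 are shown because these genes had the lowest ratios among fibrillar collagens in pair A. The sequences are the 250 bases before the gene's start in RefSeq on build GRCm38.p6, where 28 of the 42 matrix genes matched by symbol. For Col3a1 the capitals mark the E-box letters CANNTG, the motif class that basic helix-loop-helix factors bind, and for Col1a2 they mark CCAAT, searched on both strands.
Col3a1, chr1:45311288-45311537, plus strand: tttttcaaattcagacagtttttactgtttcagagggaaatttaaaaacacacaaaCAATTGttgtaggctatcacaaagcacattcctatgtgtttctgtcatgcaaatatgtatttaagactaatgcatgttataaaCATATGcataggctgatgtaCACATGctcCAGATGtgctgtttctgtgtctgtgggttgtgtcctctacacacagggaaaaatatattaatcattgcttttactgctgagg
Col1a2, chr6:4505368-4505617, plus strand: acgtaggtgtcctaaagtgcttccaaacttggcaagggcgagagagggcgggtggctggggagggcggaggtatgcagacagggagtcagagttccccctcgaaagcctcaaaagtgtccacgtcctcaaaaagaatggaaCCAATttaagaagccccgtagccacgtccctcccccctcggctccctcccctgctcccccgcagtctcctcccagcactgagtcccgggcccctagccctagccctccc
The letters CANNTG read the same on both strands and occur 4 times in this stretch of Col3a1 and not in that of Col1a2. Over windows of 300 bases, which add the first 50 bases after the start, CANNTG was found in 72.3% of 32851 promoters. Among the 37 promoters of the 28 matched matrix genes it was found in 22 (59.5%). Of the 7 promoters found for genes whose pairs spanned at least 2-fold, 2 held CANNTG and 4 held CCAAT or its complement. These promoters belong to Col3a1, Col1a2, Postn, Col11a1 and Col9a1, some of which have several. No promoter was matched for Col1a1, Col2a1, Col14a1, Dcn or Lum. CCAAT or its complement was found in 37.4% of all promoters and in 11 of those 37 (29.7%). A match is a run of letters and not a known site, and these shares are given as a description.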

How the data were processed

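RNA of 3 Paraxis-/- pools and 3 WT pools was compared on 6 two-colour arrays. The deposited files hold spot intensity in both channels, read with Agilent Feature Extraction 10.7.3.1 (slide 1) and 10.5.1.1 (slide 2) per the file headers, whereas version 8.5.1.1 stands in the submitters' processing notes. A deposited matrix of log10 ratios (Cy5 over Cy3) matched the scanner files' own ratios within 5e-11, which settles its scale and direction; its medians were 0.

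From the deposited intensity values, log2 ratios were computed with limma 3.58.1 in R 4.3.3 (with the package data.table, 1.17.8): median signals and median local backgrounds, normexp with offset 50, loess within arrays, no weight for 1639 control spots, outlier spots (438 to 620 per array) left out, spots of a probe averaged. Slide 2 files hold median signals only, so medians were used throughout. Every ratio was expressed as Paraxis-/- over WT and the 2 dye orientations were averaged, giving n = 3 pairs; a pair was the replicate because its pools shared arrays. Probes well above background in at least 4 of 6 measurements of either genotype were kept (28639 of 41174), and the brightest kept probe stood for a gene. Gene names were updated through a RefSeq listing (26627 probes by accession, 5174 by symbol, 952 by synonym, 8343 kept as deposited). All 19297 genes with at least 2 pairs (73 without the third) entered lmFit and eBayes (null ratio 0, two-sided), Benjamini-Hochberg over all genes, threshold 0.05. Levels are log2 values after loess and Aquantile, and the number of arrays limits the precision.

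For 2 arrays the pools named in the title and in the description's opening differ; the title was followed, and across 28308 probes the deviations of arrays with the same titled pair correlated at 0.38, 0.62 and 0.61, against -0.43 to -0.06 for other combinations. Values of every pair are given for members past the threshold, then for those with the same sign in all pairs and a mean of at least 0.3 on the log2 scale, then by unadjusted p up to 20 members, and for up to 3 genes of each related list. The members and lists were chosen with earlier results of these data known.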

Additional observations from a re-analysis of the deposited data

How the results depend on the processing

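The calls, class medians and ratios of named matrix genes were recomputed under 16 alternatives, except that Fbn1 had a value under 13 and Fbln5 under 15 of them and counts over the single pairs were taken under 10; marker lists, related lists, correlations and pool separations were not recomputed. None of the interstitial matrix genes passed the adjusted threshold under any of the 16. The number of genes called among all genes, 4, was 7 with a normexp offset of 0, 18 with scale normalization between arrays, 76 with the slide as a block, and between 0 and 2 when a pair was left out. The slide entered as a fixed term, and the ratio is then the mean of the 2 slide means. This gives more weight to pair A, which is alone on slide 1, and cannot remove an effect of that slide. The fibrillar collagen median was -0.32 there. With the replicate block, which treats the pair as a random block over 6 arrays (consensus correlation 0.475), 40 genes passed, none of them a matrix gene, and with no replicate block, taking the 6 arrays as 6 samples, 69 did. The cause of the added calls was not tested. The median ratio of the proteoglycan and hyaluronan genes, 0.14, was 0.0045 with the slide as a block and between 0.0076 and 0.14 when a pair was left out. The other class medians moved by less than their SD over the pairs, a wide measure that includes pair A (0.53 for fibrillar collagens). Without pair A each of them changed sign. The fibrillar collagen median went from -0.20 to 0.22, and those of other collagens, elastic fibre genes and matricellular genes became 0.0010, 0.0016 and 0.013. Leaving out saturated spots and changing the filter on dim probes left the ratio of each named gene that kept a value unchanged. Both fits over 6 arrays also returned the main ratios. These unmoved values count among the 428 ratios of 27 named genes, of which 18 changed sign, so the share says little about stability. With the slide as a block these were Col1a1 (-0.0043) and Dcn (-0.070), and for Col11a1 it was with median centring (0.015) and with scale normalization (0.0063). The others came from leaving out pairs in turn, which gave -0.46 to 0.00049 for Col5a1, -0.72 to 0.075 for Col1a2, -0.25 to 0.0098 for Fbln5, -0.028 to 0.22 for Fbln2, -0.32 to 0.013 for Thbs1, -0.060 to 0.24 for Has2, -0.37 to 0.25 for Col2a1, -0.71 to 0.56 for Col3a1, -0.43 to 0.47 for Col14a1, -0.70 to 0.36 for Lum and -0.29 to 0.27 for Col11a1, each with its changed sign without pair A, and -0.046 to 0.78 for Postn, -0.092 to 0.59 for Col1a1 and -0.15 to 0.56 for Dcn, each with its changed sign without pair B. The counts by pair, chosen after seeing the data, ran from 9 to 14 for a span of at least 2-fold, from 8 to 17 for a ratio lower by at least 1.5-fold in pair A and from 7 to 9 for the same sign in all pairs, over the 10 alternatives that keep all pairs separate. Agilent's processed signals and the series matrix hold the same ratios. For dim probes the signal over background limits what can be seen.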
